A study of Caenorhabditis elegans with 21 samples.

Results

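The genes of the nuclear pore, the nuclear lamina and nuclear transport were followed in poly(A) RNA of Caenorhabditis elegans with and without HPL-2, a heterochromatin protein 1 homolog. They were chosen by name, as the rows of the count table called npp, ima, imb, xpo, ran or lem with a number. The genes lmn-1, emr-1 and baf-1 were added. Earlier results of these data were known when the choice was made. The rule gave 41 of the 45461 genes listed, and all 41 were among the 17498 genes that passed the filter on low counts. The study asked how loss of HPL-2 alters the transcriptome, as part of work on the RNA-binding protein TDP-1. Whole worms carrying the hpl-2 deletion allele tm1489 were compared with wild-type N2 Bristol worms, and the labels give no transgene or other allele in either group. The mutant was sequenced in 3 libraries and N2 in 2, described as biological replicates and all from animals grown at 20 °C. The labels put the mutants at the L4 larval stage and N2 at the young adult stage, whereas the study's methods list L4 for both, so genotype and labelled stage cannot be told apart by the labels.

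The nuclear pore complex is a ring of nucleoporins in the nuclear envelope: an outer ring of Y-shaped complexes, an inner ring, a channel lined with phenylalanine-glycine (FG) repeats, and a basket and filaments on its faces. Importins and exportins carry cargo through it, and the small GTPase Ran sets the direction of transport. Beneath the membrane, a mesh of lamin and LEM domain proteins holds chromatin, including silent heterochromatin, at the nuclear periphery, and in C. elegans much of this machinery is needed in the germ line and the dividing embryo.

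The libraries held 95252804 to 114718047 counts on genes in hpl-2(tm1489) and 66490671 to 80724052 in N2, and the 41 genes had between 951 and 85571 counts in any library. Counts were scaled with TMM and compared by edgeR's quasi-likelihood test, and a Benjamini-Hochberg adjusted p under 0.1 over all tested genes was taken as a call. Levels are given as CPM, counts divided by the TMM-scaled library size and multiplied by 1e+06. The hpl-2 gene itself had 26.7, 30.4 and 29.9 CPM in hpl-2(tm1489) replicates 1, 2 and 3, against 38.9 and 38.6 CPM in N2 replicates 1 and 2. Its log2 fold change was -0.42 (SE 0.26, adjusted p = 0.192), and since 1 count per gene does not separate the deleted part from the rest, this value does not check the genotype. With whole animals, a lower level can come from fewer cells of a type or from less RNA per cell, and these cannot be told apart.

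Replicate 2 of hpl-2(tm1489) stood apart for these genes. It had the lowest CPM of the 3 mutant libraries for 38 of the 41 genes, whereas it was the lowest for 41.9% of all tested genes. Its CPM was a median of 0.54 times the mean of replicates 1 and 3 over the 41 genes (range 0.32 to 1.27), against a median of 1.016 over all tested genes. The 3 genes for which it was not the lowest were baf-1, ran-4 and ima-1. In N2, replicate 2 was below replicate 1 for 6 of the 41 genes, whereas it was below for 46.4% of all tested genes. The summed level of the germ line marker genes had the same order of libraries, at 2257, 1383 and 2854 CPM in the mutant and 1992 and 2757 CPM in N2. Single markers differed from the sum: him-3, syp-1 and syp-2 had 1.009, 1.025 and 1.46 times the mean CPM of the other mutant libraries in mutant replicate 2, and 0.88, 0.68 and 0.82 times the CPM of replicate 1 in N2 replicate 2. The 41 genes together summed to 4915, 3281 and 6007 CPM in hpl-2(tm1489) and to 4481 and 6008 CPM in N2, so the groups overlapped in the sum. The order of libraries in the germ line sum was not particular to that list. The sum over all tested genes had it, at 897600, 861900 and 1043000 CPM in the mutant and 1003000 and 1235000 CPM in N2. It also held for the body wall muscle markers, at 875, 605 and 955 CPM in the mutant and 5898 and 9999 CPM in N2. The sums of the yolk genes and of the oocyte and eggshell markers had this order too. Those of the intestinal, sperm, molting, neuronal and early embryo markers had other orders. The part of germ line or other tissue content in these values was not tested.

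**Figure D1:**
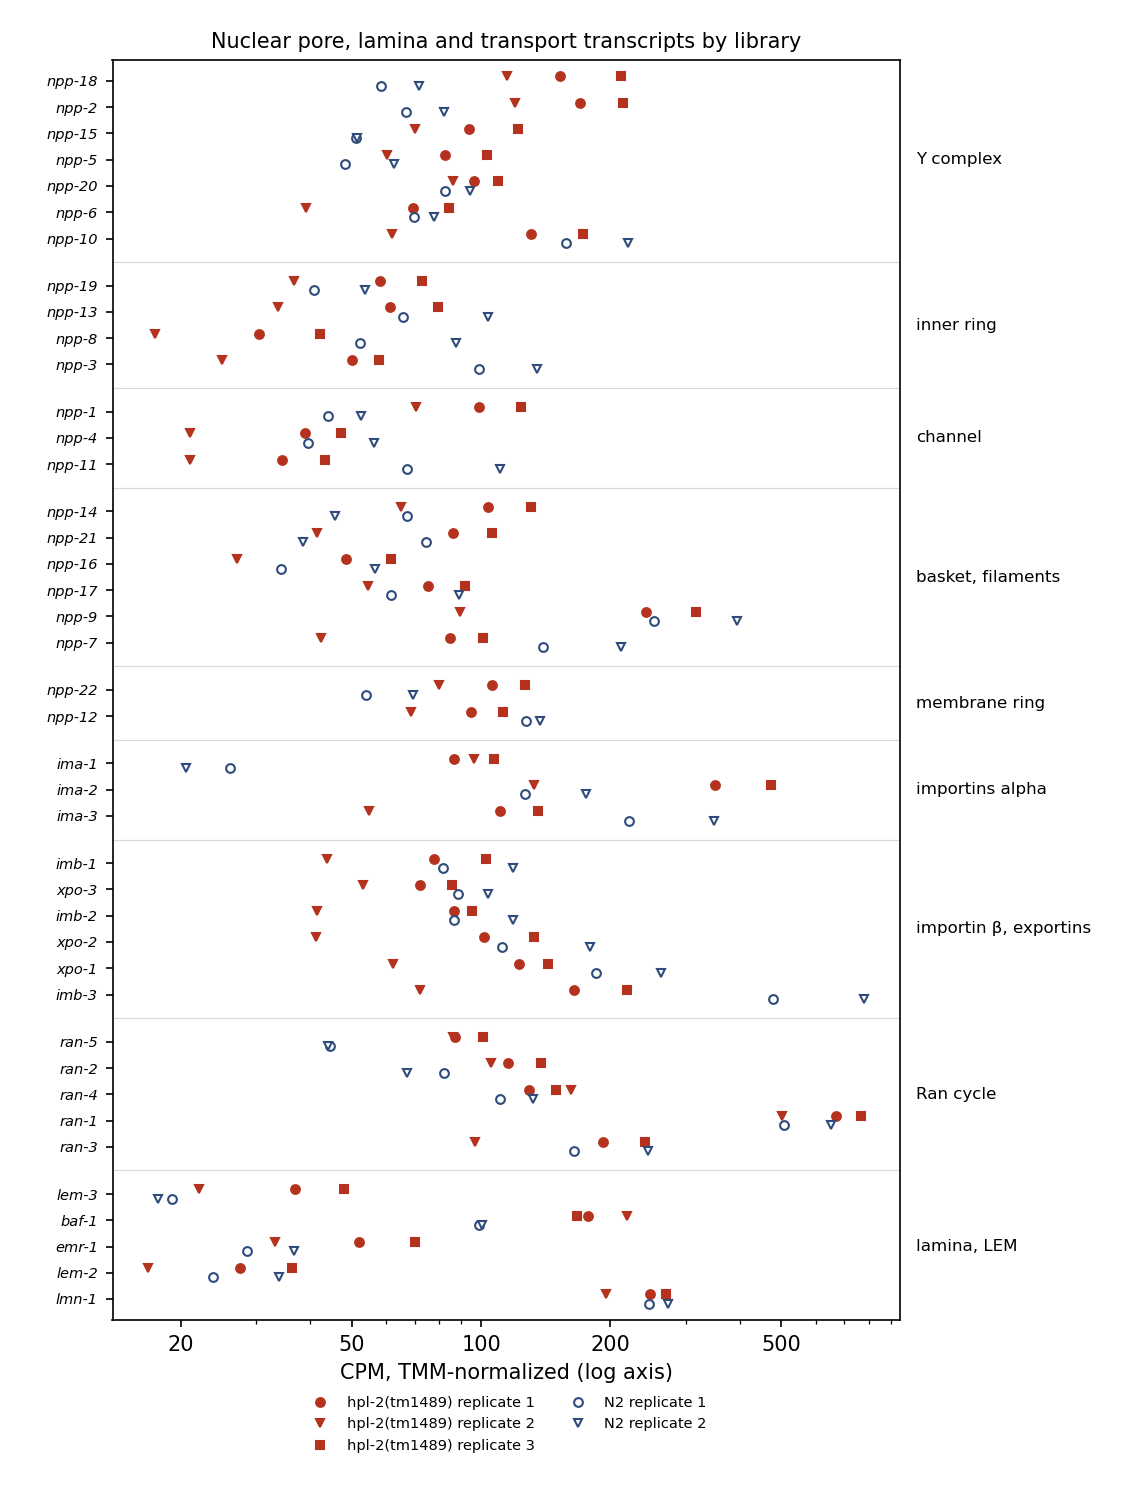
CPM (counts scaled to a common library size with TMM, log axis) of each of the 41 genes, grouped by role, with hpl-2(tm1489) libraries as filled red marks above the N2 libraries as open blue marks. The triangles of hpl-2(tm1489) replicate 2 lie left of the other 2 mutant libraries for 38 of the 41 genes. That library was the lowest of the mutant libraries for 41.9% of all tested genes. Groups do not overlap for 19 of the 41 genes (46.3%), against 72.0% of all tested genes.

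Of the 41 genes, 12 were called higher and 7 lower in hpl-2(tm1489), and 22 were not called. Among all tested genes 61.5% were called, 33.9% higher and 27.6% lower, so the 46.3% of these genes that were called was below the background, and the 29.3% called higher and 17.1% called lower were as well. Log2 fold changes ran from -2.05 for imb-3 to 2.05 for ima-1. Their median was -0.02, against 0.16 for all tested genes, and it was 0.24 against 0.41 with library size alone. The libraries of the groups did not overlap for 19 of the 41 genes (46.3%), 10 with every mutant library above both N2 libraries and 9 with every mutant library below. Over all tested genes 72.0% did not overlap, 39.0% above and 33% below. Of the 12 genes called higher, 6 exceeded a log2 fold change of 1, and 27.6% of all tested genes were called higher by more than that.

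The balance of the calls depended on the scaling. Upper quartile scaling moved the median of all tested genes to -0.16 on the log2 scale and gave 7 genes higher and 16 lower among the 41. Of the 17498 tested genes, that fit called 4523 higher and 6122 lower. The share called lower among the 41 was then above that of all tested genes. Library size alone moved the median of all tested genes to 0.41 and gave 15 higher and 7 lower among the 41. It called 6736 of all tested genes higher and 3792 lower. The calls of 6 genes held in all 13 alternative fits: ima-1 and npp-18 higher, and imb-3, npp-11, ima-3 and npp-3 lower. Without replicate 2 of hpl-2(tm1489), none of the 19 calls was lost and 4 genes were added, emr-1 and npp-5 higher and npp-12 and xpo-3 lower.

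**Figure D2:**
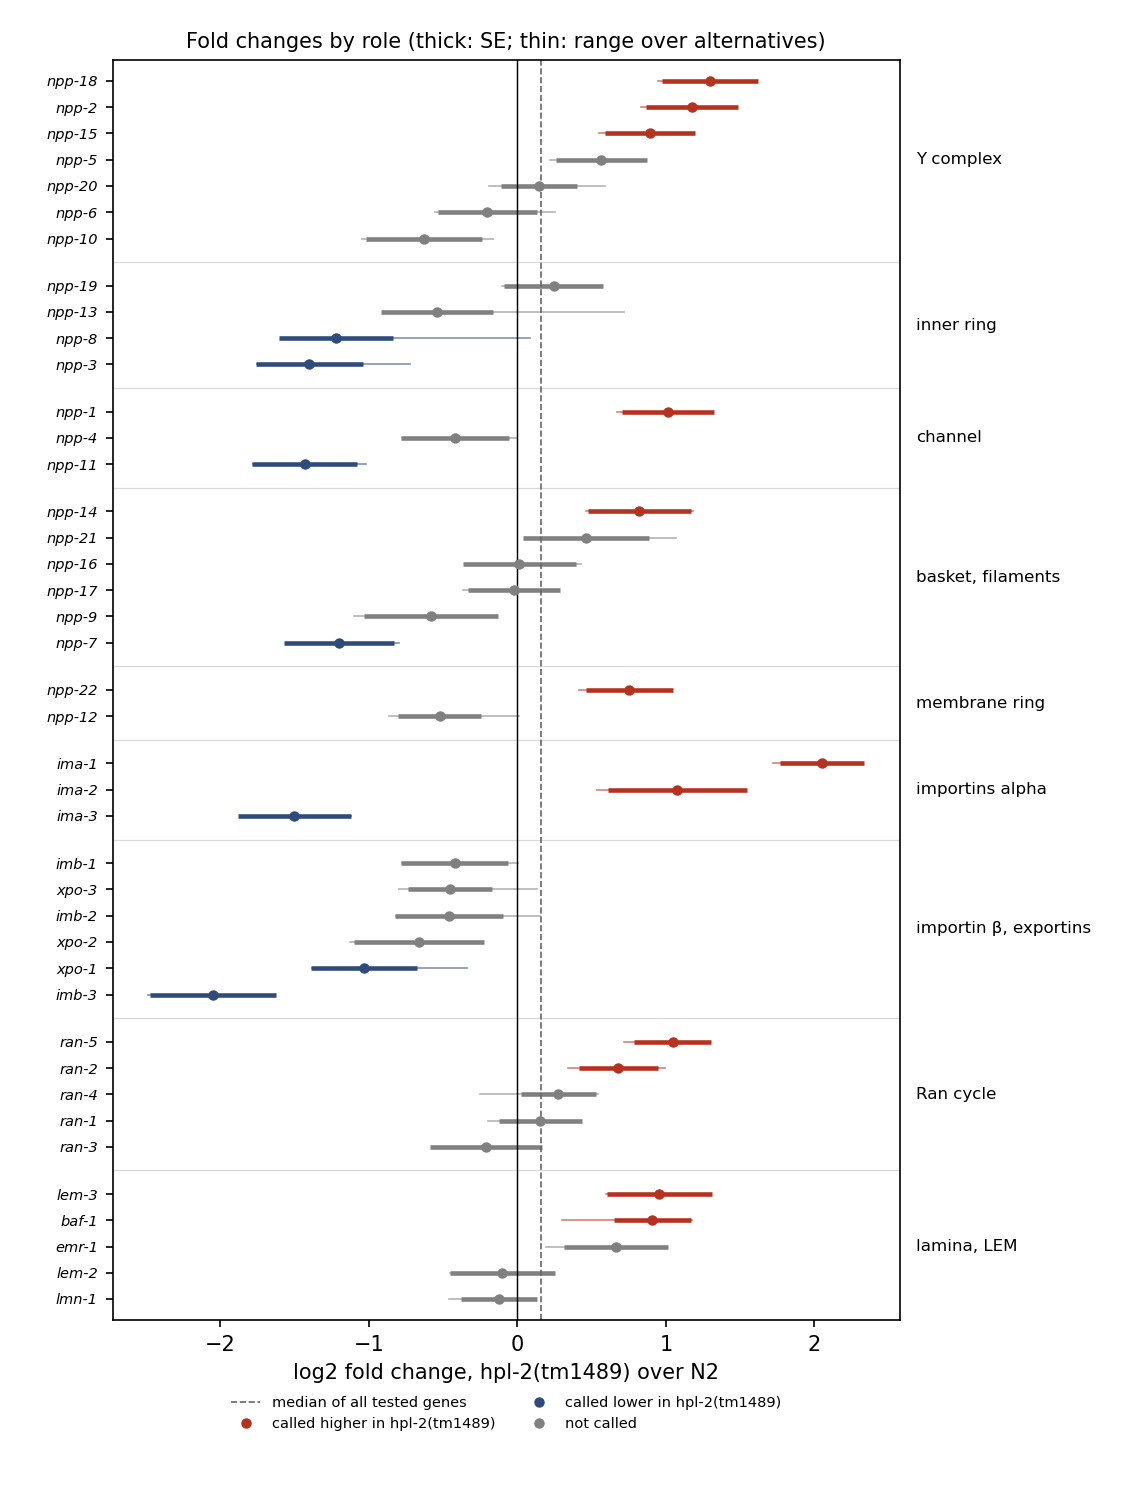
Log2 fold change of hpl-2(tm1489) over N2 for the 41 genes by role, with points at the estimate, thick bars for the SE, thin lines for the range over the 13 alternative fits, and a dashed line at the median of all tested genes (0.16). The Y complex holds 3 genes called higher and 0 lower, the inner ring 0 higher and 2 lower, and the 6 importin β and exportin genes all lie left of 0, although 3 of them lie right of 0 when a trend with gene span is removed. Of all tested genes, 33.9% were called higher and 27.6% lower.

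The Y complex, the scaffold of the outer ring, had 3 of its 7 genes called higher and none lower, with a median log2 fold change of 0.57. Of all tested genes, 33.9% were called higher and 27.6% lower. The groups by role are small, and whether their call counts depart from these shares was not tested. Transcripts of npp-18, the Seh1 counterpart, were at 152, 114.8 and 211 CPM in hpl-2(tm1489) and at 58.3 and 71.5 CPM in N2. All 3 mutant libraries were above both N2 libraries, and the log2 fold change was 1.30 (SE 0.32, adjusted p = 0.00727, edgeR). Transcripts of npp-2, the Nup85 counterpart, were at 170, 120 and 214 CPM in the mutant against 66.9 and 81.8 CPM in N2, 2.26-fold higher (SE 0.31 on the log2 scale, adjusted p = 0.0103, edgeR), again without overlap. The call of npp-2 was lost when replicate number was added as a block (log2 fold change 0.95, adjusted p = 0.118, edgeR). The third call was npp-15, the Nup133 counterpart, whose log2 fold change was 0.89 (SE 0.30, adjusted p = 0.03, edgeR). That call was lost without N2 replicate 1 (0.90, adjusted p = 0.128) and without N2 replicate 2 (0.91, adjusted p = 0.132), within a range of 0.00291 to 0.281 over its alternatives. The Nup107 counterpart npp-5 was at 0.57 (called higher at 0.65 without mutant replicate 2), the Sec13 counterpart npp-20 at 0.14 and the Nup160 counterpart npp-6 at -0.20, without a call. The lowest of the 7 was npp-10, whose product is cut into the counterparts of Nup98 and Nup96, at -0.63 (adjusted p = 0.199). Under upper quartile scaling npp-10 was called lower at -0.99, and it was called lower at -0.98 without mutant replicate 3.

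The inner ring, which anchors the channel to the pore membrane, had 2 of its 4 genes called lower and none higher, with a median of -0.88. The share of all tested genes called lower was 27.6%. Transcripts of npp-3, the Nup205 counterpart, were at 50.1, 24.9 and 58.0 CPM in hpl-2(tm1489) and at 99.1 and 135 CPM in N2. The groups did not overlap, with a log2 fold change of -1.40 (SE 0.36, adjusted p = 0.0089, edgeR). The Nup155 counterpart npp-8 was at 30.4, 17.4 and 42.1 CPM in the mutant against 52.3 and 87.5 CPM in N2, a log2 fold change of -1.22 (SE 0.39, adjusted p = 0.0227, edgeR). Its groups did not overlap either, but the call rested on N2 replicate 2, without which the log2 fold change was -0.79 (adjusted p = 0.216, and 0.00207 to 0.825 over its alternatives). The Nup93 counterpart npp-13 was at -0.54 and the Nup35 counterpart npp-19 at 0.24, both without a call, and npp-13 was called lower at -0.84 without mutant replicate 3. Offsets that removed each library's trend with gene span brought npp-8 to 0.08 and npp-13 to 0.72 and left npp-3 called lower at -0.72, which turned the median of the group to 0.09.

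The 3 FG nucleoporins of the central channel form 1 subcomplex in the animals where it has been purified, yet their transcripts went different ways. The Nup54 counterpart npp-1 was at 99.1, 70.6 and 124 CPM in hpl-2(tm1489) and at 44.1 and 52.7 CPM in N2. Each mutant library was above both N2 libraries, and the level was 2.02-fold higher (SE 0.31 on the log2 scale, adjusted p = 0.0194, edgeR). The Nup62 counterpart npp-11 was at 34.3, 20.99 and 43.4 CPM in the mutant against 67.2 and 111 CPM in N2, a log2 fold change of -1.43 (SE 0.36, adjusted p = 0.0074, edgeR), with every mutant library below. The Nup58 counterpart npp-4 was at -0.42 without a call (SE 0.36, adjusted p = 0.35), and its groups overlapped. Within a library, the ratio of npp-1 counts to npp-11 counts needs no scaling between libraries. It was 2.89, 3.36 and 2.85 in hpl-2(tm1489) and 0.66 and 0.48 in N2, and the groups lay apart. The ratio of npp-1 to npp-4 was 2.54, 3.35 and 2.63 in the mutant and 1.12 and 0.94 in N2. The call of npp-1 was lost without N2 replicate 1 (log2 fold change 0.90). It was also lost when replicate number was added as a block (0.80, adjusted p = 0.189, edgeR). The adjusted p of npp-1 ran from 0.00174 to 0.189 over its alternatives.

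Among the 6 genes of the nuclear basket and the cytoplasmic filaments, 1 was called in each direction and 4 were not called. Over all tested genes, 33.9% were called higher and 27.6% lower. The Nup153 counterpart npp-7, a basket protein, was at 84.7, 42.4 and 101 CPM in hpl-2(tm1489) and at 140 and 211 CPM in N2. All mutant libraries were below, and the log2 fold change was -1.20 (SE 0.37, adjusted p = 0.0201, edgeR). It was -0.86 without N2 replicate 2, where the call was lost (adjusted p = 0.171, and 0.00197 to 0.171 over its alternatives). The Nup214 counterpart npp-14, on the cytoplasmic face, was called higher at 0.82 (SE 0.35, adjusted p = 0.0692, edgeR), although hpl-2(tm1489) replicate 2 at 65.1 CPM was below N2 replicate 1 at 67.1 CPM. The basket protein TPR is encoded by npp-21, whose transcripts were at 86.1, 41.5 and 106 CPM in the mutant and at 74.5 and 38.4 CPM in N2. The spread within each group covered the difference, with a log2 fold change of 0.46 (SE 0.43, adjusted p = 0.382, edgeR). It ran from 0.08 without N2 replicate 2 to 1.03 without N2 replicate 1, and gene span offsets called it higher at 1.07 (adjusted p = 0.0363, and 0.0363 to 0.918 over its alternatives). The Nup50 counterpart npp-16 was at 0.01 and the Rae1 counterpart npp-17 at -0.02, the smallest differences among the 41 genes, and the sign of each depended on the scaling. The Nup358 counterpart npp-9 was at -0.58 without a call and had the lowest ratio of mutant replicate 2 to the other mutant libraries, 0.32. It was called lower at -0.95 under upper quartile scaling and at -0.98 without mutant replicate 3.

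The call of npp-14 did not hold without hpl-2(tm1489) replicate 1 (0.70) or 3 (0.56), and it was lost as well when N2 replicate 2 was left out (0.58). In the membrane ring, which fixes the pore to the fused membranes, npp-22, the Ndc1 counterpart, was called higher at 0.75 (SE 0.30, adjusted p = 0.0535, edgeR), and all mutant libraries were above both N2 libraries. This call was lost in 4 of the 5 fits that left out 1 library, at 0.67 and 0.59 without hpl-2(tm1489) replicates 1 and 3 and at 0.59 and 0.96 without N2 replicates 1 and 2. The gp210 counterpart npp-12 was at -0.52 without a call (SE 0.28, adjusted p = 0.139, edgeR), although every mutant library was below both N2 libraries. It was called lower by DESeq2, under upper quartile scaling and without hpl-2(tm1489) replicate 2 (-0.45) or 3 (-0.70), and it was at 0.01 with gene span offsets.

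The importins α, the adaptors that bind the nuclear localization signal of a cargo, went in opposite directions. In C. elegans, ima-1 and ima-2 are known as germ line genes, whereas ima-3 is used in the soma as well as in the germ line. Transcripts of ima-1 were at 86.7, 96.5 and 107 CPM in hpl-2(tm1489) and at 26.1 and 20.6 CPM in N2. The mutant libraries were close to each other and far above N2, with a log2 fold change of 2.05 (SE 0.28, adjusted p = 0.000336, edgeR), the largest increase among the 41 genes and a 4.14-fold difference. Transcripts of ima-3 were at 111, 54.9 and 136 CPM in the mutant against 221 and 349 CPM in N2. All mutant libraries were below both N2 libraries, and the log2 fold change was -1.50 (SE 0.38, adjusted p = 0.00804, edgeR).

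Transcripts of ima-2 were at 350, 133 and 472 CPM in hpl-2(tm1489) and at 127 and 175 CPM in N2. Replicates 1 and 3 of the mutant were above both N2 libraries, and replicate 2 lay between them. The call, a log2 fold change of 1.08 (SE 0.47, adjusted p = 0.0747, edgeR), was lost without hpl-2(tm1489) replicate 3 (0.67), without N2 replicate 1 (0.87) and without N2 replicate 2 (1.34), with adjusted p of 0.00191 to 0.45 over its alternatives. The ratio of ima-1 to ima-3 counts within a library was 0.78, 1.76 and 0.79 in hpl-2(tm1489) and 0.12 and 0.06 in N2. That of ima-2 to ima-3 was 3.16, 2.42 and 3.47 in the mutant and 0.57 and 0.50 in N2. Both ratios separated the groups in every library, and in hpl-2(tm1489) replicate 2 the first was above and the second below those of the other mutant libraries. The ratio of ima-1 to ima-2 was 0.25, 0.73 and 0.23 in the mutant and 0.21 and 0.12 in N2, where mutant replicate 2 stood alone.

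**Figure D3:**
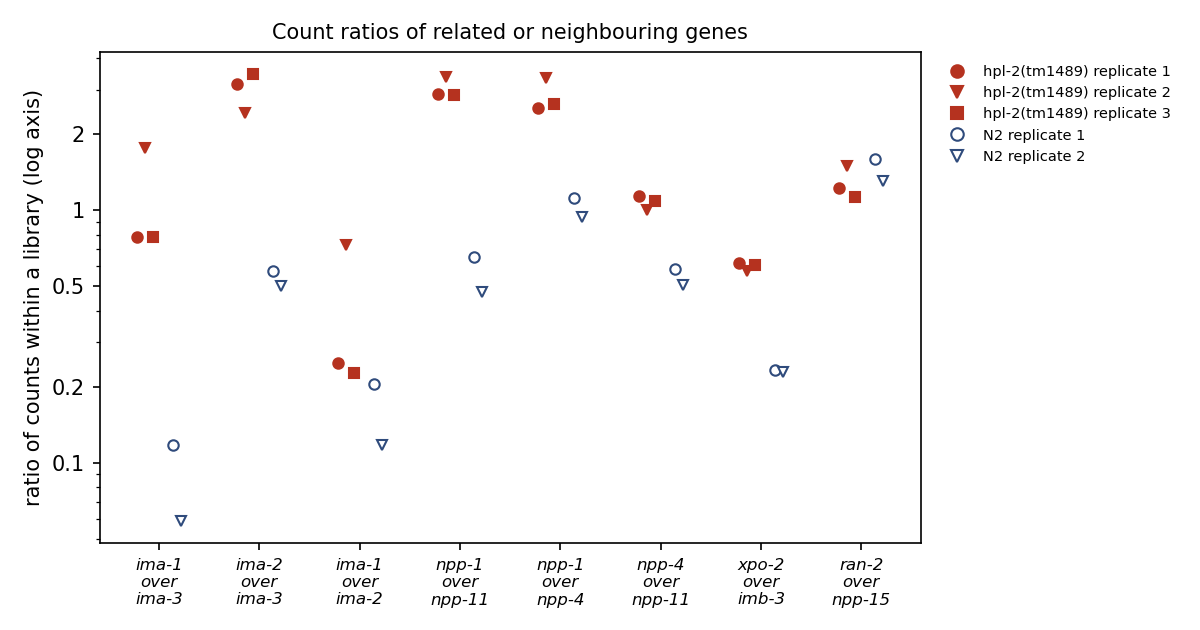
Ratio of the counts of related or neighbouring genes within each library (log axis), with hpl-2(tm1489) libraries as filled red marks left of N2 libraries as open blue marks. The ratio of npp-1 to npp-11 was 2.85 to 3.36 in the mutant and 0.48 to 0.66 in N2, and that of xpo-2 to imb-3 was 0.57 to 0.62 in the mutant and 0.23 in both N2 libraries, whereas the ratios of ran-2 to npp-15 overlapped.

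The importin β family and the exportins, the carriers that pass through the channel, had 2 of their 6 genes called lower and none higher, with a median of -0.56. Over all tested genes 27.6% were called lower. All 6 estimates were below 0 with each of the 4 scalings, and upper quartile scaling called all 6 lower. With gene span offsets, imb-1 at 0.00, xpo-3 at 0.13 and imb-2 at 0.15 were no longer below 0. Transcripts of imb-3, the importin 5 counterpart, were at 165, 72.0 and 218 CPM in hpl-2(tm1489) and at 478 and 779 CPM in N2. The highest mutant library was under the lowest N2 library by more than 2-fold, and the log2 fold change was -2.05 (SE 0.43, adjusted p = 0.00291, edgeR), a 4.14-fold lower level and the largest decrease of the 41 genes.

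The main carrier for protein export, CRM1, is encoded by xpo-1, whose transcripts were at 123, 62.2 and 143 CPM in the mutant against 185 and 262 CPM in N2. Its groups did not overlap, and its log2 fold change was -1.03 (SE 0.36, adjusted p = 0.0333, edgeR). The call was lost without N2 replicate 2 (-0.75, adjusted p = 0.226) and with gene span offsets (-0.34, adjusted p = 0.337), within 0.00598 to 0.337 over its alternatives. Importin β itself, imb-1, was at 77.6, 43.7 and 103 CPM in hpl-2(tm1489) and at 81.7 and 118.7 CPM in N2. These groups overlapped, and imb-1 was not called at -0.42 (SE 0.36, adjusted p = 0.347, edgeR). The transportin counterpart imb-2 was at -0.46, the tRNA exporter xpo-3 at -0.46 and the importin α recycling factor xpo-2, the CAS counterpart, at -0.66, all without a call. Without mutant replicate 3, xpo-2 was called lower at -1.03. For xpo-3 every mutant library was nevertheless below both N2 libraries, and it was called lower without hpl-2(tm1489) replicate 2 (-0.39). The genes xpo-2 and imb-3 neighbour each other in the WBcel235 annotation, and the ratio of their counts was 0.62, 0.57 and 0.61 in the mutant and 0.23 and 0.23 in N2, so the neighbours differed in their change. The summed level of the 6 carriers was 626, 314 and 777 CPM in hpl-2(tm1489) and 1032 and 1562 CPM in N2.

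In the Ran cycle, 2 of 5 genes were called higher and none lower, against 33.9% higher and 27.6% lower of all tested genes. The median was 0.28 and turned to -0.04 under upper quartile scaling and to -0.20 with gene span offsets. The counterpart of the Ran-binding protein RanBP3, ran-5, was at 87.0, 86.2 and 101 CPM in hpl-2(tm1489) and at 44.6 and 44.1 CPM in N2. Both groups were tight and far apart, with a log2 fold change of 1.04 (SE 0.26, adjusted p = 0.00736, edgeR). The call of ran-5 was lost when replicate number was added as a block (0.97, adjusted p = 0.102, edgeR). The GTPase-activating protein of Ran, ran-2, was called higher at 0.68 (SE 0.27, adjusted p = 0.0537, edgeR), with all mutant libraries above both N2 libraries. This call was lost in 4 of the 5 fits that left out 1 library, at 0.63 and 0.56 without hpl-2(tm1489) replicates 1 and 3 and at 0.84 and 0.56 without N2 replicates 1 and 2. The Ran GTPase itself, ran-1, was at 670, 501 and 765 CPM in the mutant and at 506 and 654 CPM in N2. The groups overlapped, and no difference was detectable (log2 fold change 0.15, SE 0.28, adjusted p = 0.666, edgeR). The exchange factor ran-3, the RCC1 counterpart, was at -0.21 and the Ran importer ran-4, the NTF2 counterpart, at 0.28, without a call. The genes ran-2 and npp-15 are neighbours as well, and the ratio of their counts was 1.23, 1.50 and 1.13 in hpl-2(tm1489) and 1.60 and 1.31 in N2, with overlap.

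For the lamina and the LEM domain proteins, which bind lamin and the chromatin protein BAF, 2 of 5 genes were called higher and none lower. Of all tested genes 33.9% were called higher and 27.6% lower. The median of the group was 0.67. The single C. elegans lamin, lmn-1, was at 247, 196 and 269 CPM in hpl-2(tm1489) and at 245 and 272 CPM in N2. Its groups overlapped, with a log2 fold change of -0.13 (SE 0.26, adjusted p = 0.705, edgeR), and the sign depended on the scaling. The gene of BAF, baf-1, was at 177, 218 and 167 CPM in the mutant against 98.8 and 101 CPM in N2. All 3 mutant libraries were above both N2 libraries, with a log2 fold change of 0.91 (SE 0.26, adjusted p = 0.0146, edgeR). With gene span offsets it was at 0.30 without a call (adjusted p = 0.286, and 0.00721 to 0.286 over its alternatives). The call of baf-1 was also lost when replicate number was added as a block (0.98, adjusted p = 0.105, edgeR).

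The emerin gene emr-1 was at 52.0, 33.1 and 70.2 CPM in hpl-2(tm1489) and at 28.6 and 36.7 CPM in N2. Replicate 2 of the mutant lay between the N2 libraries, and the log2 fold change of 0.67 was not called (SE 0.35, adjusted p = 0.134, edgeR). When hpl-2(tm1489) replicate 2 was left out, emr-1 was called higher at 0.81 (adjusted p = 0.0118, and 0.0118 to 0.684 over its alternatives). The LEM domain endonuclease lem-3 was called higher at 0.96 (SE 0.35, adjusted p = 0.0433, edgeR), with every mutant library above both N2 libraries. Its call was lost in 4 of the 5 fits that left out 1 library, at 0.84 and 0.67 without hpl-2(tm1489) replicates 1 and 3 and at 1.022 and 0.91 without N2 replicates 1 and 2. The inner membrane protein lem-2 was at -0.10 without a call, with a sign that depended on the scaling.

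Some marker lists of tissues and stages also differed between the groups. For comparison, 33.9% of all tested genes were called higher and 27.6% lower. The summed levels of the germ line and sperm markers overlapped between the groups. Of 11 oocyte and eggshell markers, 10 were called higher and none lower, and their summed level was 2468, 929 and 3339 CPM in hpl-2(tm1489) against 449 and 623 CPM in N2. As for the pore and transport genes, mutant replicate 2 was the lowest of the mutant libraries in this sum. Of 16 germ line markers, 4 were called higher and 1 lower. Of 8 molting markers 7 were called lower, with a sum of 126, 98.9 and 83.3 CPM in the mutant against 1040 and 1504 CPM in N2. All 6 yolk genes and all 5 body wall muscle markers were called lower, with sums of 808 to 1647 and 605 to 955 CPM in the mutant and of 6620 to 7255 and 5898 to 9999 CPM in N2. Sperm markers were called higher for 1 and lower for 5 of 13, with sums of 687 to 768 CPM in the mutant and 570 to 731 CPM in N2. Intestinal markers were called lower for 4 of 5, with sums of 2982 to 4256 CPM in the mutant and 6047 to 7276 CPM in N2. Neuronal markers were called higher for 1 and lower for 2 of 6, with sums of 254 to 261 CPM in the mutant and 279 to 350 CPM in N2. Of 8 early embryo markers only 2 passed the count filter, vet-2 and end-3, and both were called higher. They passed it through the mutant libraries, with 425, 386 and 427 counts for vet-2 and 53, 66 and 37 for end-3. In N2, vet-2 had 16 and 2 counts and end-3 had 0 and 8. The direction of these calls was therefore largely set by the filter and lends no support to a difference in the early embryo list. The sum of this list was 3.97 to 5.28 CPM in hpl-2(tm1489) and 0.33 to 0.50 CPM in N2, most of it in the mutant from vet-2 at 3.33 to 4.68 CPM. The other 6 had at most 32 counts in any library, among them pes-10 with 3, 5 and 1 counts in the mutant and none in N2 and end-1 with 7, 2 and 3 counts in the mutant and 9 and 3 in N2. The part of these tissue and stage differences in the changes of the 41 genes was not tested.

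**Figure D4:**
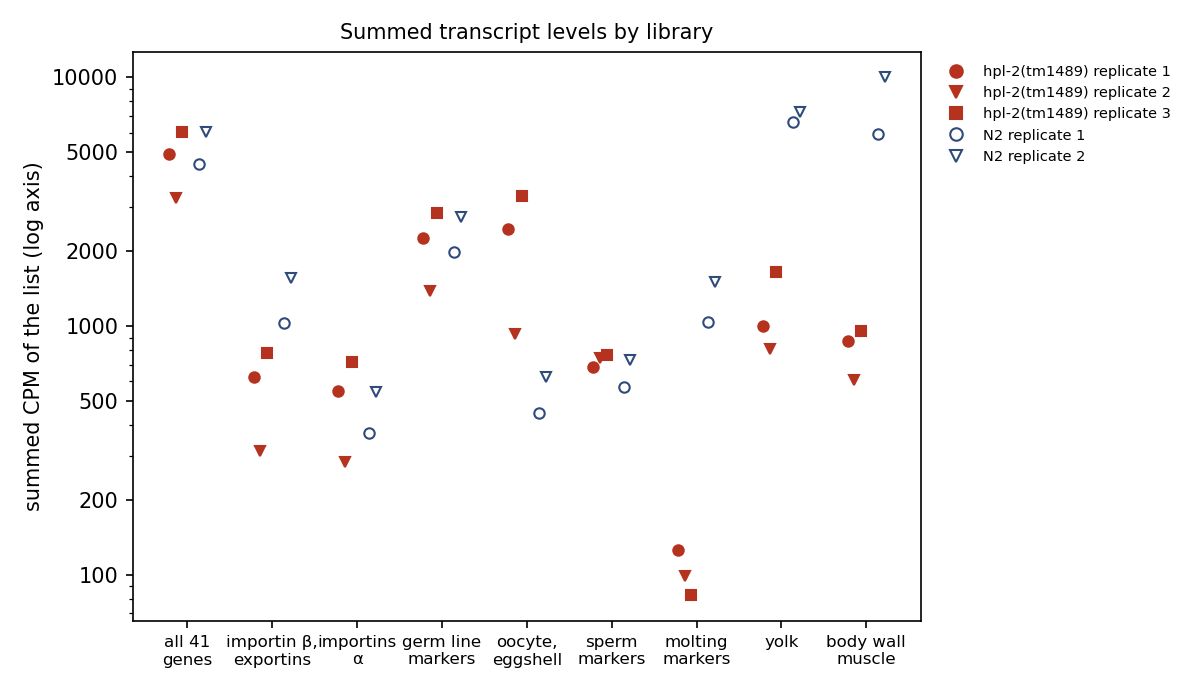
Summed CPM (log axis) of all 41 genes, of the importin β and exportin genes, of the importins α and of marker lists, with hpl-2(tm1489) libraries as filled red marks left of N2 libraries as open blue marks. Oocyte markers are higher in each mutant library (929 to 3339 CPM) than in N2 (449 to 623 CPM), molting, yolk and muscle markers are lower, and the sum of the 41 genes overlaps between the groups.

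Gene span differed between the called genes. In the WBcel235 annotation, a later build than the one used for counting, the genes called higher had a median span of 2347.5 bases (n = 12), those called lower 5243 bases (n = 7) and those not called 4804 bases (n = 21). The median of all tested genes with a span was 2216 bases. Offsets that removed each library's trend with span gave 14 genes higher and 5 lower. Of all tested genes, the fit with these offsets called 6154 higher and 4634 lower. Of the 40 genes with an entry in that annotation, 12 overlapped another protein-coding gene, namely npp-3, npp-8, npp-9, npp-12, npp-13, npp-16, npp-21, ima-3, imb-2, xpo-1, xpo-3 and ran-1. The counting is not stated to use the strand, so their counts, and the calls of npp-3, npp-8, ima-3 and xpo-1, are uncertain to that extent.

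Of 35 listed genes that work beside the pore and lamina, 33 could be tested, and 13 were called higher and 7 lower, with a median log2 fold change of 0.31. Of all tested genes, 33.9% were called higher and 27.6% lower. The bridge of SUN and KASH proteins, which ties the nucleus to the cytoskeleton, had 4 of 6 genes called lower. The nesprin counterpart anc-1 was at -1.83 (adjusted p = 0.000591), the SUN protein unc-84 at -1.75 (adjusted p = 0.00377) and the KASH protein unc-83 at -1.64 (adjusted p = 0.000722, edgeR). With gene span offsets the calls of anc-1 (-0.14) and unc-83 (-0.41) were lost. The SUN protein of the germ line, sun-1, was called higher at 0.75 (adjusted p = 0.0922, edgeR) with groups that overlapped. This call was lost in 4 of the 5 fits that left out 1 library, at 0.64 and 0.48 without hpl-2(tm1489) replicates 1 and 3 and at 0.61 and 0.93 without N2 replicates 1 and 2. The isoprenylcysteine methyltransferase icmt-1, which completes the lamin tail, was called lower at -1.73 (adjusted p = 0.000647, edgeR).

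Of 12 mRNA export genes, 7 were called higher and 2 lower, with a median of 0.94. The shares over all tested genes were 33.9% higher and 27.6% lower, and whether these small groups depart from them was not tested. The export receptor family divided, with nxf-2 at 2.02 (SE 0.30, adjusted p = 0.00047, edgeR) and nxf-1 at -0.76 (SE 0.28, adjusted p = 0.0424, edgeR). Among pore assembly genes, the torsin ooc-5 was at 2.21 (adjusted p = 0.000616) and the BAF kinase vrk-1 at 1.96 (adjusted p = 0.00216), both called higher. The pore assembly scaffold mel-28, the ELYS counterpart, was at 0.71 without a call (adjusted p = 0.132, edgeR), and it was called higher at 0.88 without hpl-2(tm1489) replicate 2. For heterochromatin anchoring, 2 of 3 genes were called higher. Of these, cec-4, which holds chromatin methylated at histone H3 lysine 9 at the envelope, was at 1.31 (SE 0.29, adjusted p = 0.00443, edgeR) and the methyltransferase met-2 at 1.38, whereas the methyltransferase set-25 was at -0.12 without a call. The SUMO protease ulp-1 was called higher at 1.40 (adjusted p = 0.00442, edgeR), and 2 other genes of the SUMO cycle were not called.

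**Figure D5:**
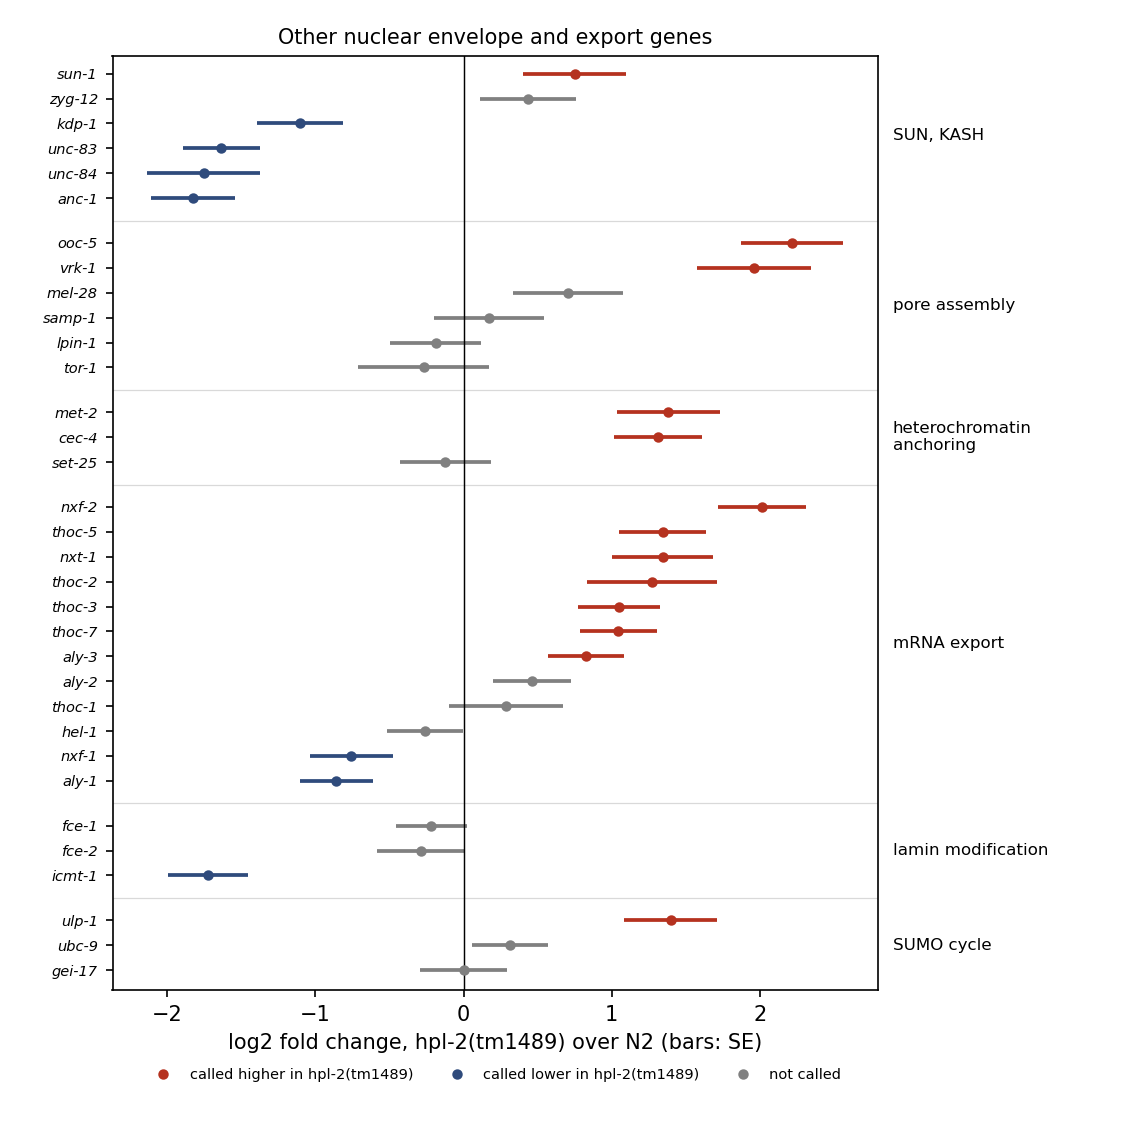
Log2 fold change of hpl-2(tm1489) over N2 with its SE for 33 tested genes that work beside the pore and lamina, grouped by role. Of the 12 mRNA export genes 7 are called higher and 2 lower, and of the 6 SUN and KASH genes 1 is called higher and 4 lower. Of all tested genes, 33.9% were called higher and 27.6% lower.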

How the data were processed

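The members and lists were chosen with earlier results of these data known, and the roles were taken from the known functions of the proteins. For the poly(A) libraries, the authors mapped trimmed reads to WS220 using TopHat2 2.0.14 (a version that the submitters' processing notes also give) and deposited counts of uniquely mapped reads per WS220 gene, made with Rsubread and without normalization. The authors tested genes with DESeq2 1.14.1 at a false discovery rate of 10%.

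Here filterByExpr of edgeR was applied to the deposited counts (minimum of 10 counts, 17498 of 45461 genes kept), and they were scaled with TMM and fitted with genotype as the group by edgeR 4.0.16 in R 4.3.3 (robust quasi-likelihood fit, common dispersion 0.0814). P-values were adjusted over all tested genes with the Benjamini-Hochberg method. SEs were derived from the fold change and the F statistic. With 10 orderings of 3 and 2 libraries, no exact test of a single value was used. The procedure was tested on simulated data. Pairs of libraries of 1 genotype differed beyond sampling noise (chi-square over degrees of freedom 100.3 to 588.7), so none was treated as a copy of another. P-values set the difference between genotypes against the spread between these libraries, moderated over all tested genes.

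Values in every library were given for lmn-1, emr-1, baf-1, ran-1, ima-1, ima-2, ima-3, imb-1, npp-21 and the 12 members with the smallest adjusted p. Of the related genes, up to 4 called genes with the largest change in each direction were named, and sun-1, unc-84, mel-28 and cec-4 always; nxf-1 and met-2, set-25, the markers vet-2, end-3, pes-10, end-1, him-3, syp-1 and syp-2 and the members outside this rule were named after their values were seen. Genes were matched to the RefSeq table of WBcel235 by name for spans, overlaps and neighbours (97.1% of tested genes), and no levels were compared between genes for want of transcript lengths of the build used.

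Alternatives were DESeq2 1.42.0, 3 scalings in edgeR (size factors of DESeq2, upper quartile, library size alone), 2 filters (none, or a mean of 10 counts), stricter thresholds, a replicate block, gene span offsets (loess span 0.5) and each library left out. Samples of total RNA, genomic DNA, J2 immunoprecipitates and ChIP were not analysed here. The authors' own table of fold changes and p-values was not used.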

Additional observations from a re-analysis of the deposited data

How the results depend on the processing

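Of the 19 calls, 6 held in all 13 alternative fits and 13 were lost in at least 1; DESeq2 shared all 19. Of the 22 genes without a call, 14 gained one in at least 1 alternative fit, among them npp-4 (-0.77), imb-1 (-0.78) and imb-2 (-0.82) with upper quartile scaling, ran-4 (0.55) and npp-5 (0.82) with library size alone and npp-20 (0.59) with gene span offsets. The number of genes called higher, 12 as reported, was 7 with upper quartile scaling and 6 with an absolute log2 fold change above 1, and it ran from 6 (without either N2 library) to 14 (without hpl-2(tm1489) replicate 2) with 1 library left out, with 7 without hpl-2(tm1489) replicate 3. The number called lower, 7 as reported, was 16 with upper quartile scaling and ran from 4 (without N2 replicate 2) to 12 (without hpl-2(tm1489) replicate 3). Without an N2 library the lone control is assumed to vary like the mutants. Shares of all tested genes are not set beside the counts with 1 library left out. Whether those counts depart from such shares was not tested.

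Reversals were of uncalled genes, with the exception of npp-8 (0.0837 with gene span offsets). With those offsets npp-13 was at 0.72 (called), npp-6 at 0.25, imb-2 at 0.15, xpo-3 at 0.13, lem-2 at 0.0531, npp-12 at 0.0092, imb-1 at 0.0029, npp-16 at -0.12, ran-1 at -0.20 and ran-4 at -0.25. With upper quartile scaling ran-4 was at -0.0388, npp-19 at -0.11, ran-1 at -0.18, npp-20 at -0.19 and npp-16 at -0.34. With library size alone npp-6 was at 0.0311, ran-3 at 0.0375, lmn-1 at 0.12, lem-2 at 0.15 and npp-17 at 0.24. The sign of npp-16 also turned with DESeq2 (-0.0613), its size factors (-0.075) and no low-count filter (-0.0733). With 1 library left out, npp-16 ran from -0.30 to 0.43, npp-17 from -0.26 to 0.28, lem-2 from -0.38 to 0.19, ran-3 from -0.51 to 0.11 and ran-1 from -0.0104 to 0.36. Apart from the construction of each setting, the cause was not tested.

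Replicate numbers 1 and 2 occur in both groups, and deviations of same-numbered libraries correlated at -0.331 and -0.394. With 2 N2 libraries, the deviations of 1 mirror those of the other, so these values are not independent. They cannot show whether same-numbered libraries were prepared together, and this was not tested. Under the replicate block 2 of the pore, lamina and transport genes were called higher and 10 lower, npp-19 was at -0.0162 and npp-16 at -0.28. Of all tested genes, the fit with this block called 4405 higher and 3474 lower. The share of the pore, lamina and transport genes called higher was then below that of all tested genes. Their share called lower was above that of all tested genes. Whether these shares depart from those of all tested genes was not tested. Replicates differed beyond sampling noise, and with 2 N2 libraries the spread of that group is known poorly.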

Other observations

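The WBcel235 gene table gives a name of the same kind to 7 further genes that the count table lists under sequence names, and these were looked up after the values of the other genes had been seen. The LEM domain gene lem-4 was at 32.9, 28.6 and 45.7 CPM in hpl-2(tm1489) and at 11.5 and 13.8 CPM in N2. All mutant libraries were above both N2 libraries, and the log2 fold change was 1.50 (SE 0.31, adjusted p = 0.00312, edgeR). The Y complex gene npp-23, the Nup43 counterpart, was at 80.8, 82.3 and 97.7 CPM in the mutant against 35.6 and 39.3 CPM in N2, a log2 fold change of 1.22 (SE 0.27, adjusted p = 0.00388, edgeR) without overlap. Counted with the 7 genes of the Y complex described above, it would be the fourth called higher.

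The exportin 7 counterpart xpo-7 was at 149, 141 and 170 CPM in hpl-2(tm1489) and at 106 and 76.9 CPM in N2, a log2 fold change of 0.75 (SE 0.27, adjusted p = 0.0389, edgeR). It went up where the estimates of the 6 other carriers were below 0. The membrane ring gene npp-25 was called lower at -0.75 (SE 0.35, adjusted p = 0.0921, edgeR), and npp-24 at 0.23 and npp-27 at 0.55 were not called. Transcripts of npp-26 had 111, 97 and 85 counts in hpl-2(tm1489) and 3 and 0 counts in N2.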
